A study of Mus musculus with 6 samples.

Results

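The core p65 sites are genomic intervals at which a p65 ChIP–seq peak of adult mouse epidermal cells overlapped, by at least 1 bp, a peak of aged/IgG control mice and a peak of aged/anti-IL-17A/F mice. There were 3502 such sites among the 8525 peaks of the adult list (41.1%) and the 18708 peaks of all 3 lists. They overlapped 3516 of the 4169 aged/IgG control peaks (84.3%) and 3523 of the 6014 aged/anti-IL-17A/F peaks (58.6%). The members were chosen by measured values, namely the presence of a called peak in every list, so that peak presence, fold enrichment, q value and width are described here without a test. Sequence, position and nearest gene were not used in the choice.

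The epidermal cells came from trypsin-treated skin of C57BL/6J mice. Adult mice received no treatment, aged/IgG control mice received intraperitoneal control IgG for 12 weeks, and aged/anti-IL-17A/F mice received blocking antibodies against IL-17A and IL-17F on the same schedule. The labels give age only as adult, aged and aged+, the last for the aged/anti-IL-17A/F samples. Trypsin suspensions of skin can hold cells other than keratinocytes, and chromatin was not separated by cell type. The authors pooled the mice of a condition before peak calling, so each condition is 1 list without replicates. Conditions could therefore not be tested against each other, and all intervals given cover counting error only. The 3 input samples were not analysed here.

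The peak names stored inside the lists went against a label. All 8525 peaks of the list labelled adult carry names that begin with "Treated", as do all 6014 aged/anti-IL-17A/F peaks, whereas the 4169 aged/IgG control peaks begin with "Control". The lists whose names begin with "Treated" hold different intervals, and whether the adult prefix is a leftover or a mix-up cannot be told apart here. With these lists exchanged, so that sites were counted among aged/anti-IL-17A/F peaks, there were 3503 core sites. "Adult" and "aged/anti-IL-17A/F" mean the lists labelled so, and values for the 3 lists are given in the order adult, IgG (for aged/IgG control) and anti-IL-17A/F (for aged/anti-IL-17A/F).

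p65, encoded by Rela, is the NF-κB subunit that carries the main transactivation domain. In resting cells inhibitors of the IκB family hold NF-κB dimers in the cytoplasm. Cytokines such as TNF, IL-1 and IL-17A, and ligands of Toll-like receptors, lead to the degradation of these inhibitors, after which the dimers bind κB sites in DNA. Several of the genes they switch on encode their own inhibitors, which makes the pathway a textbook case of negative feedback. In epidermis, NF-κB is known for inflammatory signalling by keratinocytes and for a part in their growth arrest and survival.

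Core sites that were strongest in all 3 lists carried κB sequences. For each peak the fold enrichment over the local background, as the peak caller gave it, was ranked within its list and expressed as a percentile. Whether that background was the input DNA or the surrounding ChIP signal is not given in the sources used here. The 12 core sites with the highest mean percentile each held a match to the degenerate NF-κB consensus within 100 bp of the adult summit. The matches of those reported are printed here on the plus strand of GRCm38 (mm10) from the RefSeq assembly, with the match nearest the summit in capitals. Windows that touch a UTR or a non-coding exon are shortened.
Nfkbib (chr7:28766496-28766525): ccgccctatcGGGAATTCCCcaacacgccc
Nfkbia (chr12:55492657-55492686): gtcaggcgcgGGGAATTTCCaagccagtca
Gm826 (chr2:160313844-160313903): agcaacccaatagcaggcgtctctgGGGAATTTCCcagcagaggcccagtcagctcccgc
Nfkb2 (chr19:46304716-46304745): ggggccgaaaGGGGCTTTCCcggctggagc
Chd2 (chr7:73537745-73537804): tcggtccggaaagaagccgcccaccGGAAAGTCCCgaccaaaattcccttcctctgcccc
Mmrn2 (chr14:34379159-34379218): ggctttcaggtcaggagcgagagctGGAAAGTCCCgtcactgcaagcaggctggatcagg
Junb (chr8:84976488-84976547): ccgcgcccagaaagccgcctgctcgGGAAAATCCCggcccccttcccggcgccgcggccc
Tnip1 (chr11:54956102-54956131): cacgcccctgGGAAAGTCCCcggagaccga
4831407H17Rik (chr14:30464739-30464798): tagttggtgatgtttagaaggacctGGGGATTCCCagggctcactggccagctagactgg
Gm39859 (chr2:75625316-75625375): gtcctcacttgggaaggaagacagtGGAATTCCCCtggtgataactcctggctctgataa
Tm2d1 (chr4:98131077-98131136): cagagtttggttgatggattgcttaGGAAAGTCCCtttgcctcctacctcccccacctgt
The matches of Chd2, Mmrn2, Junb, Tnip1, Gm39859 and Tm2d1 lie on the minus strand. Chd2, Mmrn2, Tnip1 and Tm2d1 share GGAAAGTCCC, which reads GGGACTTTCC on the other strand, and Nfkbia and Gm826 share GGGAATTTCC.

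By mean percentile, the leading pair of these sites lay at genes of NF-κB inhibitors. The site 257 bp into Nfkbib, which encodes IκBβ (7, 28765918 to 28766857), had a fold enrichment of 23.6 in adult, 17.5 with IgG and 22.3 with anti-IL-17A/F. It was the strongest peak of all in adult and with anti-IL-17A/F. The site 336 bp into Nfkbia, which encodes IκBα (12, 55491456 to 55493167), had 20.6, 19.2 and 18.7 in the same order, and was the strongest of the aged/IgG control list. At Nfkb2, which encodes p100 and p52, the site 397 bp downstream of the start (19, 46304093 to 46306176) had 18.9, 16.5 and 19.6 and held 3 κB matches. The site in Tnip1, whose product ABIN1 assists the ubiquitin-editing enzyme A20, had 22.6, 16.96 and 14.1. Near Junb, an AP-1 subunit gene, the site at 2247 bp from the start had 19.7, 18.8 and 14.5.

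The others of these sites were not nearest to a gene of the lists used here. The Gm826 site was the third by mean percentile (99.89), just ahead of Nfkb2 (99.88), and those of Chd2 and Mmrn2 stood ahead of Junb and Tnip1. The sites lay in introns of Gm826, of Chd2, which encodes a chromatin remodeller, of Mmrn2, an extracellular matrix gene of endothelium, and of Cacna1d, where 4831407H17Rik has the nearest start. Intergenic sites were nearest to Gm39859 and to Tm2d1, and the Tm2d1 site was 252221 bp from that start. Among these sites the fold enrichment ran from 15.6 at Tm2d1 to 23.5 at Gm826 in adult. A nearest start is a label of position only, and no expression was measured in these samples.

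**Figure D1:**
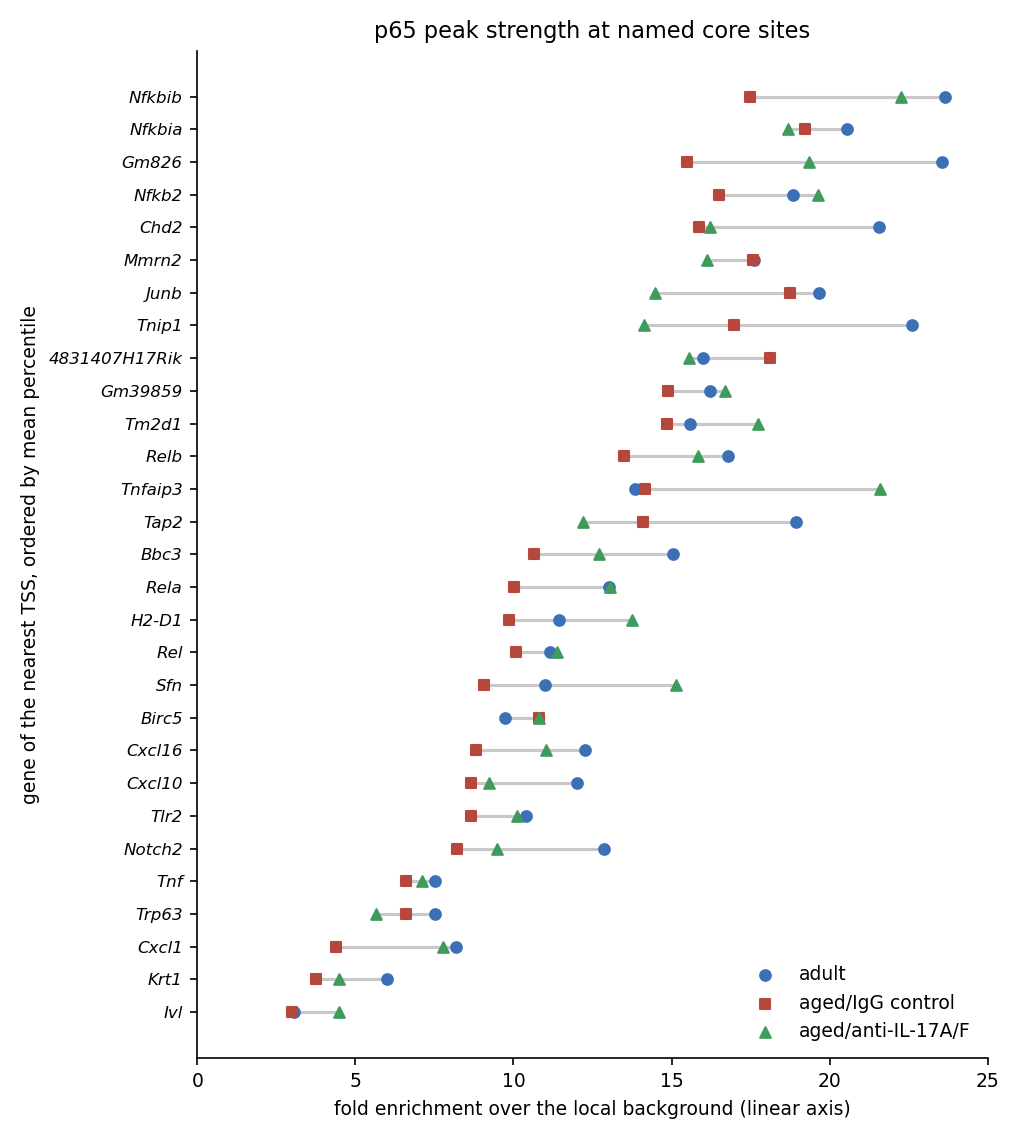
Fold enrichment over the local background (linear horizontal axis) of named core sites in the adult (circles), aged/IgG control (squares) and aged/anti-IL-17A/F (triangles) lists, with a grey line from the lowest to the highest of the 3 values. Rows are ordered by mean percentile, from Nfkbib with 17.5 to 23.6 at the top to Ivl with 2.99 to 4.496 at the bottom; each point is 1 peak of 1 pooled list.

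Core sites took in nearly all of the strongest peaks of every list, a property that the rule itself favours, and most of the aged/IgG control list at any strength. The median fold enrichment of the core sites was 5.18 in adult, 4.10 with IgG and 4.59 with anti-IL-17A/F. Peaks outside the core had medians of 3.14, 3.09 and 3.11. The median percentile of a core site was 78.3 within the adult list, 57.6 within the aged/IgG control list and 69.8 within the aged/anti-IL-17A/F list. From the weakest to the strongest decile of fold enrichment, the share of peaks in the core went from 7.86% to 100% in adult, from 62.0% to 100% in aged/IgG control and from 26.3% to 99.8% in aged/anti-IL-17A/F. At the top, the 100 strongest peaks of each list were all at core sites. The strongest peak outside the core stood at rank 876 in adult, with a fold enrichment of 7.07, at rank 563 in aged/IgG control, with 6.26, and at rank 505 in aged/anti-IL-17A/F, with 7.56.

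**Figure D2:**
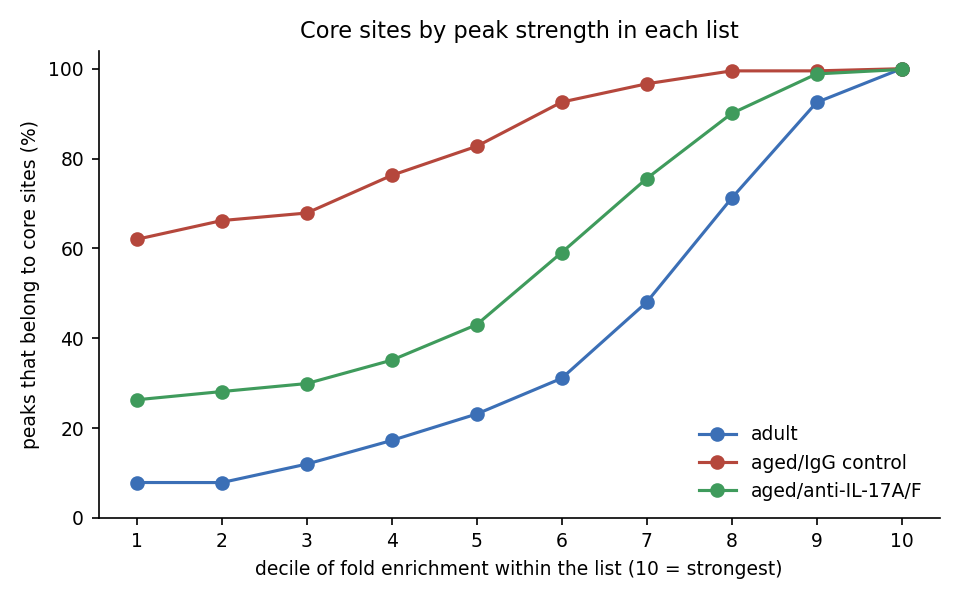
Share of the peaks of each list that belong to core sites (vertical axis, percent) by decile of fold enrichment within that list (10 is the strongest). The lines start at 7.86% for adult, 26.3% for aged/anti-IL-17A/F and 62.0% for aged/IgG control, and meet at 99.8% to 100% in the strongest decile.

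The 3 lists placed the summit of a core site at closely spaced bases. The median distance from the adult summit was 27 bp to the IgG summit and 26 bp to the anti-IL-17A/F summit. All 3 summits lay within 50 bp of each other at 1946 sites (55.6%) and within 100 bp at 2942 sites (84.0%). The spread of the summits had a median of 38 bp at sites with a κB match and 53 bp at sites without. Core peaks had a median width of 556 bp in adult, 452 bp with IgG and 511 bp with anti-IL-17A/F.

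Membership rarely hung on the 1-bp limit. The smaller of a site's overlaps with the other lists had a median of 425 bp and was under 50 bp at 3 sites. These were nearest to Litaf, with 9 bp shared with an aged/IgG control peak, Gpr161, with 34 bp shared with an aged/anti-IL-17A/F peak, and Azin1, with 36 bp. Just outside, the adult peak at Slc41a1 abutted an aged/IgG control peak with a gap of 0 bp, and the peaks at Ptma and Herpud1 missed one by 22 and 43 bp. Adult fold enrichment was 2.39, 2.09 and 3.52 at the 3 sites inside and 2.42, 3.11 and 3.47 at the 3 peaks outside. Of the 5023 adult peaks outside the core, 3002 overlapped no peak of either other list, 1644 missed the aged/IgG control list only and 377 missed the aged/anti-IL-17A/F list only.

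κB matches were more frequent at core sites than at other adult peaks, and most of that difference went with peak strength. A match lay within 100 bp of the adult summit at 1487 of 3502 core sites (42.5%, 95% Wilson interval 40.8 to 44.1) and at 940 of 5023 other adult peaks (18.7%, 17.7 to 19.8), a difference of 23.8 percentage points (Newcombe interval 21.8 to 25.7). With a stricter consensus, a subset of the degenerate one, the share of core sites was 19.5% (18.2 to 20.8) and the difference 12.7 points (11.2 to 14.2). Windows of the same length 2000 bp to either side of the core summits held a match in 148 of 7004 cases (2.11%). Over RefSeq promoters, 1043 of 32851 windows of that length (3.18%) did so. By the number of lists, the share was 15.1% at peaks found in adult only, 18.6% at peaks also found in aged/IgG control, 25.4% at peaks also found in aged/anti-IL-17A/F and 42.5% in all 3. Since core sites are stronger by construction, the shares were also compared within deciles of adult fold enrichment. There the difference averaged 4.91 points (95% interval 0.572 to 9.24) over the 9 deciles that held both classes. The core share was the higher in 9 of 9 deciles, and the interval excluded 0 in 3 of them. The strongest decile held 853 core sites and no other peak, and 61.0% of its sites had a match.

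**Figure D3:**
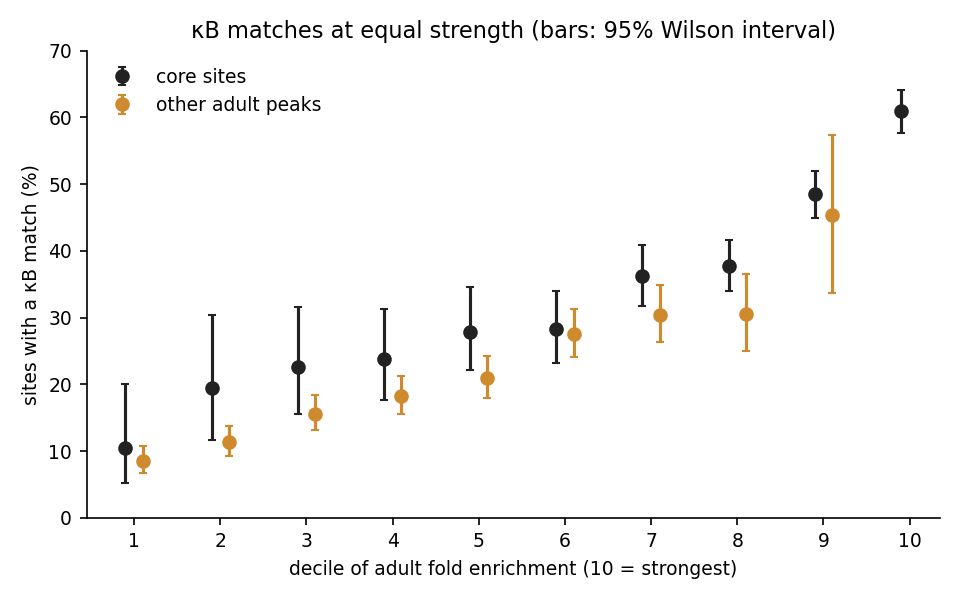
Share of sites with a κB match within 100 bp of the summit (vertical axis, percent, bars are 95% Wilson intervals for counting error) by decile of adult fold enrichment, for core sites (black) and other adult peaks (orange). In both classes the share rises with strength, for core sites from 10.4% in the weakest to 61.0% in the strongest decile, and the intervals of the classes overlap in most deciles.

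The matches were packed against the summits. Of the core sites with a match, 57.3% had it within 25 bp of the summit, against 46.0% of the other adult peaks with a match, and the median distances were 20.5 and 28.5 bp. By plus-strand coordinates of the genome, 11.7% of core sites and 3.52% of other peaks had a match start in the 20-bp bin centred at -10 bp. In the bin centred at 150 bp the shares were 0.457% and 0.378%. The sign carries no direction relative to a gene or to the strand of the match.

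**Figure D4:**
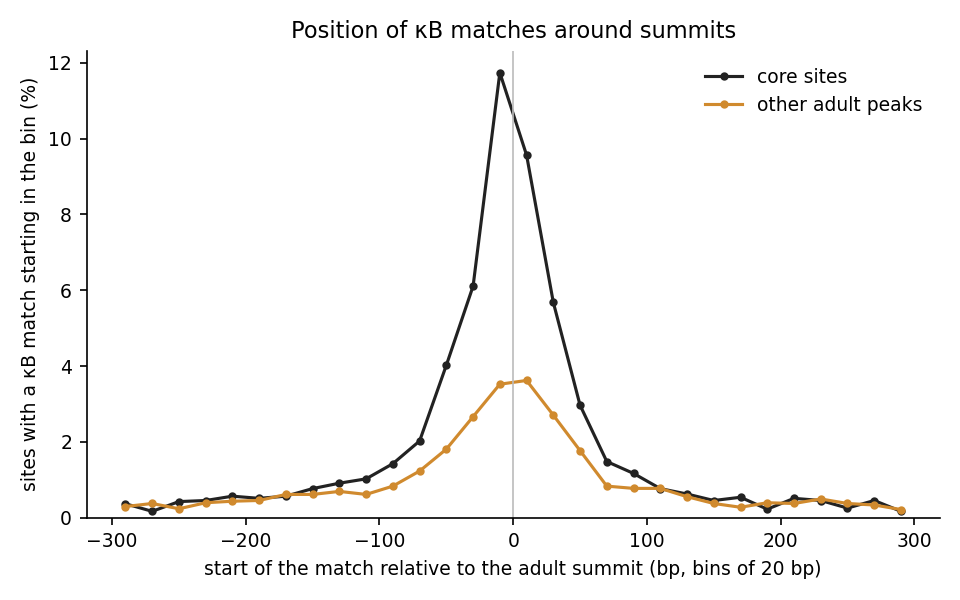
Share of sites in which a κB match starts in each 20-bp bin (vertical axis, percent) by distance of the bin centre from the adult summit (horizontal axis, bp, plus-strand coordinates). Core sites (black) peak at 11.7% in the bin centred at -10 bp, other adult peaks (orange) at 3.62% in the bin centred at 10 bp, and both are below 1% from 130 bp outwards.

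Sites with more matches had a higher median strength in every list. No match was found at 2015 core sites, 1 at 1160, 2 at 289 and 3 or more at 38. In that order the median percentile was 73.1, 84.2, 87.0 and 89.4 in adult, 50.6, 66.2, 67.9 and 78.5 in aged/IgG control, and 62.6, 77.7, 79.6 and 85.6 in aged/anti-IL-17A/F. Among the 100 core sites of highest mean percentile 76 had a match (Wilson interval 66.8 to 83.3%). Among the highest 350 it was 232 (66.3%, 61.2 to 71.0), and among the lowest 350 it was 56 (16%, 12.5 to 20.2). The absence of a match says only that these letters were not in the window. The promoter sites of Rela and Rel themselves, with mean percentiles of 98.3 and 97.7, held none.

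The commonest exact κB sequences were GGGACTTTCC at 146 core sites, GGGGATTTCC at 133, GGGAAATTCC at 99, GGGAGTTTCC at 97 and GGGGAATTCC at 95, read on either strand. Each was found at a larger share of core sites than of other adult peaks, for example 4.17% against 1.49% for GGGACTTTCC, a difference of 2.68 points (1.957 to 3.45). Sites with any of the 5 had similar strength, with median adult percentiles from 85.6 to 88.8. The aged/IgG control medians ran from 68.6 to 79.8 and the aged/anti-IL-17A/F medians from 78.9 to 85.8, with the highest at GGGGAATTCC in both.

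Motifs of other factors separated core sites from the remaining adult peaks by a few points at most. The AP-1 motif TGANTCA lay at 504 core sites (14.4%) and 12.4% of other peaks, a difference of 1.95 points (0.483 to 3.44), and the average within deciles was 1.27 points (-1.64 to 4.17). The core share was the higher in 3 deciles and the lower in 6, and the interval excluded 0 in none of them. The AP-1 motif was present in 6.05% of the flanking windows and 5.64% of promoters. The GC box GGGCGG, a motif of many promoters, was at 22.9% of core sites and 28.1% of other peaks (difference -5.17 points, -7.02 to -3.29), which came to -1.07 points (-4.81 to 2.67) within deciles. ETS motifs (CCGGAAG) were at 3.94% and 6.05%, TEAD motifs (GGAATG) at 14.3% and 12.5%, RUNX motifs (TGTGGT) at 12.2% and 11.01%, and the C/EBP motif TTGCNNAA at 9.39% and 10.1%. The STAT motif TTCNNNGAA lay at 6.51% and 5.49%, the GRHL motif AACNGGTT at 4.45% and 4.20%, and paired p53/p63 elements at 7.08% and 7.11%. The intervals of the differences for RUNX, C/EBP, STAT, GRHL and p53/p63 included 0. All motifs were searched on both strands, and none of the matches shows that a factor was bound.

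Most core sites were away from promoters. Within 1 kb of a transcription start site (TSS) lay 1135 core sites (32.4%, 30.9 to 34.0), 815 lay at 1 to 10 kb, 1055 (30.1%) at 10 to 50 kb and 497 (14.2%) farther away. Other adult peaks were within 1 kb in 40.0% of cases, a difference of -7.63 points (-9.67 to -5.56). Within deciles of fold enrichment this difference averaged -0.540 points (-4.59 to 3.51), with the core share higher in 5 deciles and lower in 4. The middle of the peak was intergenic at 1706 sites (48.7%), intronic at 1329 (37.9%), in a 5′ UTR at 291, in a coding exon at 96, in a non-coding exon at 56 and in a 3′ UTR at 24. The median distance to a TSS was 7077 bp, against 4014 bp for other adult peaks.

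Promoter and distal core sites differed in sequence. A κB match was present at 38.1% of the 1135 sites within 1 kb and at 44.6% of the 2367 others (difference -6.51 points, -9.94 to -3.02). AP-1 motifs were present at 5.99% and 18.4% (difference -12.4 points, -14.5 to -10.3), and the GC box at 48.3% and 10.7% (37.6 points, 34.4 to 40.7). ETS motifs were at 8.37% and 1.82%, and paired p53/p63 elements at 3.26% and 8.91%. Median GC content around the summit was 63.2% near a TSS and 51.2% elsewhere. Median percentiles near a TSS and elsewhere were 77.9 and 78.6 in adult, 51.9 and 59.8 in aged/IgG control and 65.8 and 71.2 in aged/anti-IL-17A/F. In the same order, median fold enrichment was 5.13 and 5.20, 3.875 and 4.188, and 4.337 and 4.672. Percentiles depend on the length of each list, so their gaps are not comparable between lists. Among the 100 strongest core sites 25 were within 1 kb of a TSS. Among the strongest 350 it was 111 (31.7%), and among the lowest 350 it was 179 (51.1%).

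Along the chromosomes, core sites ran from 0.123 per Mb on chromosome X to 2.50 per Mb on chromosome 11. Chromosome 17 had the largest share of adult peaks in the core (45.9%) and chromosome X the smallest (32.3%, 21 of 65). Another core site lay within 10 kb of 691 sites (19.7%). For other adult peaks and their own class the share was 22.7%. That class is larger (5023 peaks against 3502), which alone makes neighbours more frequent, so the shares do not compare clustering. Repeat-masked bases made up over 50% of the summit window at 38 core sites.

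By nearest TSS, 2984 core sites belonged to protein-coding genes, 405 to long non-coding RNA genes and 84 to miRNA genes. Here and below, a gene has a core site or an adult peak only where its TSS is the nearest. A gene said to have no adult peak can thus still lie close to one. They named 2356 of 20923 protein-coding genes (11.3%), and this share is the background for the lists below, which were written by hand and chosen with earlier results of these data known. A further 2482 genes had an adult peak but no core site. The background also counts genes without any adult peak. A list share above it therefore does not tell core sites apart from adult peaks in general. Of the 2356 genes, 1912 had 1 core site, 321 had 2, 85 had 3 and 38 had 4 or more. Over all of them, the median of a gene's highest mean percentile was 69.9.

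**Figure D5:**
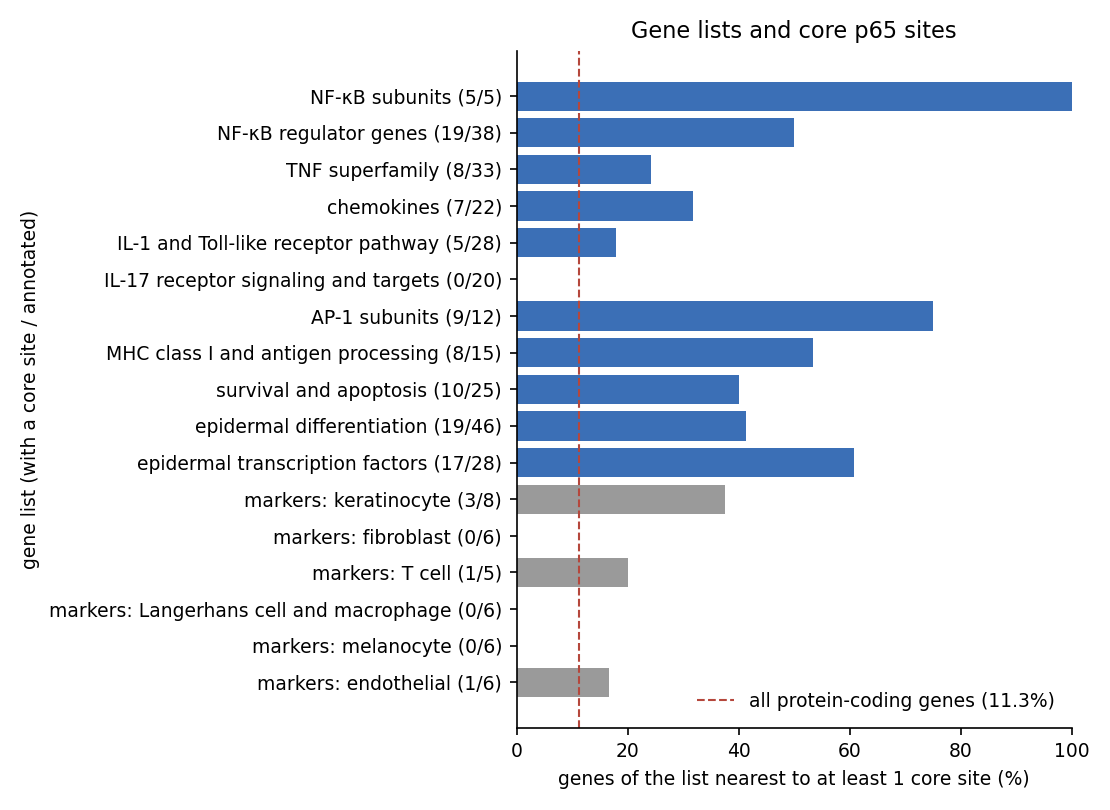
Percentage of the annotated genes of each list that are nearest to at least 1 core site (bars start at 0), with the numbers in parentheses and grey bars for cell type marker lists. The dashed line is the share of all protein-coding genes, 11.3%; the bars run from 0 for the IL-17 receptor list to 100% for the 5 NF-κB subunit genes.

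All 5 genes of NF-κB subunits had core sites, 8 in total, and the median of their highest mean percentiles was 98.3. At the start of Relb, which encodes the partner of p52 in the non-canonical pathway, fold enrichment was 16.8 in adult, 13.5 with IgG and 15.8 with anti-IL-17A/F. The Rela site at -11 bp had 13.0, 10.03 and 13.0, the Rel site at -96 bp had 11.2, 10.1 and 11.4, and the Nfkb1 site, 17 bp into the gene of p105 and p50, had 7.63, 5.47 and 6.25. At all 5 genes the aged/IgG control value was the lowest of the 3, as was its median over all core sites.

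Among 38 genes that regulate NF-κB, 19 (50%) had core sites, 38 sites in all, with a median of 95.3. Every IκB family gene of the list had a core site, namely Nfkbia, Nfkbib, Nfkbie and the atypical members Nfkbiz, Nfkbid and Bcl3. Nfkbia had 6 core sites, and beyond the one described its adult fold enrichment ran from 4.44 to 12.2. At Tnfaip3, which encodes the ubiquitin-editing enzyme A20, the site 135 bp into the gene had 13.8 in adult, 14.2 with IgG and 21.6 with anti-IL-17A/F, the third value being the highest. The deubiquitinase gene Cyld had 18.5, 10.1 and 14.5, and Nfkbie, the gene of IκBε, 16.9, 7.89 and 10.3. Tax1bp1, Traf6, Map3k14, Tab3 and N4bp1 had an adult peak but no core site. Another 14 genes had no adult peak, among them Chuk, Ikbkb and Ikbkg, which encode the subunits of the IκB kinase.

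The matches of further sites named in this and the following paragraphs are shown in the same way, to set pathway genes beside epidermal ones. Several sites named there, such as those of Tlr2, Tnfrsf11a, Runx1, Krt1, Ivl, Mcl1 and Cd2, held no match and are not shown.
Relb (chr7:19629501-19629560): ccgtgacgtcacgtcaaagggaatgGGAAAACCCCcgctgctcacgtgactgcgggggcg
Tnfaip3 (chr10:19015403-19015432): ttgccaacagGGGGATTTCCgatggaaatt
H2-D1 (chr17:35262898-35262957): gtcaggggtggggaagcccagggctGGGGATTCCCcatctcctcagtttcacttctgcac
Birc5 (chr11:117849168-117849227): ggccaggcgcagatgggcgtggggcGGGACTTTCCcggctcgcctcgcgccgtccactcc
Cxcl10 (chr5:92349014-92349073): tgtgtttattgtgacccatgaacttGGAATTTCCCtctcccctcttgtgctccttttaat
Cxcl1 (chr5:90891149-90891208): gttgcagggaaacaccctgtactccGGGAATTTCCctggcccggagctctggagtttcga
Tnf (chr17:35199142-35199201): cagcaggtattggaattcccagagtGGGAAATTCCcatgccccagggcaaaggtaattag
Klf4 (chr4:55903134-55903193): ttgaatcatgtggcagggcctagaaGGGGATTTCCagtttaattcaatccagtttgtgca
Notch2 (chr3:98013401-98013460): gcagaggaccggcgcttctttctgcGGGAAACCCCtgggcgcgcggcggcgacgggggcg
The capitals of Birc5 are the commonest κB sequence, those of Tnfaip3 and Klf4 are GGGGATTTCC and those of Tnf are GGGAAATTCC.

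Genes of cytokines and their receptors also had core sites. Of 33 genes of the TNF superfamily, 8 (24.2%) had one, and the median of their highest mean percentiles was 81.2. The site 2853 bp downstream of the Tnf start held 2 κB matches and had 7.52 in adult, 6.60 with IgG and 7.11 with anti-IL-17A/F. Tnfsf13, the gene of APRIL, had 9.08, 5.99 and 6.29, and Tnfrsf11a, the gene of RANK, 6.31, 5.69 and 6.53. Of 22 annotated chemokine genes 7 (31.8%) had a core site, with a median of 72.8. At Cxcl16 the values were 12.3, 8.80 and 11.03, at Cxcl10, a ligand of CXCR3, 12.0, 8.65 and 9.24, and at Cxcl1, a neutrophil attractant, 8.18, 4.38 and 7.76. The site nearest to Ccl27a, a keratinocyte chemokine that attracts T cells, lay in a coding exon of Il11ra1 and had 5.68, 4.12 and 5.15, and both genes have near copies with which reads may be shared.

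The IL-1 and Toll-like receptor list had core sites at 5 of 28 genes (17.9%), with a median of 59.8. These were Il1a, Il1r2, Il1rl2, which encodes the receptor of IL-36, Tlr2 and Tlr5. The Tlr2 site, at -21389 bp, had 10.4 in adult, 8.66 with IgG and 10.1 with anti-IL-17A/F. The Il1a site had 4.69, 3.53 and 4.41 and held 2 κB matches. Of 20 genes listed for IL-17 ligands, receptors, signalling and some of their targets, 0 had a core site, against the background of 11.3%. This holds for that list only, since Cxcl1, Cxcl5, Nfkbiz and Zc3h12a, which are also known to respond to IL-17A, were placed in the chemokine and NF-κB regulator lists and had core sites. Il17ra, Il17rc, Traf3ip2, which encodes the adaptor Act1, S100a9 and Il6 had an adult peak outside the core, and the other 15, among them Lcn2, S100a8 and Defb4, had no adult peak.

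AP-1 subunit genes had core sites at 9 of 12 (75%), 25 sites in all, with a median of 79.2. Besides Junb, the leading sites were at Atf3, a stress-induced member, with 15.9 in adult, 10.8 with IgG and 13.6 with anti-IL-17A/F, at Fos with 5.50, 6.46 and 6.38, and at Fosl1 with 6.94, 4.70 and 7.93. These sites of Atf3, Fos and Fosl1 held no κB match. Batf3 had an adult peak outside the core, and Batf2 and Jdp2 had none.

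Of 15 genes of MHC class I and antigen processing, 8 (53.3%) had core sites, with a median of 94.6. The site 14431 bp from the start of Tap2, which encodes a subunit of the peptide transporter, had 18.9 in adult, 14.1 with IgG and 12.2 with anti-IL-17A/F. Sites just upstream of the class I genes H2-D1 and H2-Q4 had 11.4, 9.87 and 13.8, and 10.7, 11.8 and 7.84. These genes belong to a family of near copies, so reads may be shared among them. At Tapbp, the gene of tapasin, the values were 13.1, 8.33 and 10.8. Genes of the immunoproteasome, Psmb8, Psmb9 and Psmb10, had no adult peak.

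Survival and death genes had core sites at 10 of 25 (40.0%), with a median of 70.6. Bbc3, which encodes the pro-apoptotic PUMA, had the strongest, 9 bp from its start, with 15.0 in adult, 10.7 with IgG and 12.7 with anti-IL-17A/F. Birc5, the gene of survivin, had 9.74, 10.8 and 10.8, Mcl1, an anti-apoptotic BCL-2 relative, 6.34, 4.69 and 6.71, and Sod2, the mitochondrial superoxide dismutase, 6.14, 4.63 and 5.51. Bcl2, Xiap and Cflar had no adult peak.

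Genes of epidermal identity were also the nearest genes of core sites, some of them at a long distance. Of 46 annotated genes of epidermal differentiation and adhesion 19 (41.3%) had one, and 16 had an adult peak outside the core. The median of the highest mean percentiles was 66.9, below the 69.9 of all genes with a core site. The site nearest to Sfn, which encodes 14-3-3σ, a keratinocyte differentiation gene, had 11 in adult, 9.07 with IgG and 15.1 with anti-IL-17A/F. It lay at -12074 bp, in an intron of Zdhhc18. Notch2 had 12.9, 8.23 and 9.48 at its promoter. Of 28 epidermal transcription factor genes 17 (60.7%) had core sites, with a median of 82.7. The strongest Klf4 site was at -370651 bp from the start of this barrier gene and had 12.7, 10.7 and 11.8. The leading site of Elf3, an epithelial ETS factor, had 11.2, 11.1 and 11.3 at 9904 bp from the start. That of Runx1, at -214544 bp, had 12.1, 10.4 and 8.38. That of Tead1, a Hippo pathway factor, had 9.85, 5.66 and 6.51 at 41361 bp, in an intron of the gene.

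Among marker genes of cell types, keratinocyte markers had core sites at 3 of 8 genes. These were Trp63, the gene of p63, at an intronic site with 7.52 in adult, 6.59 with IgG and 5.66 with anti-IL-17A/F, Krt1, with 6.00, 3.74 and 4.496, and Ivl, with 3.07, 2.99 and 4.496. Krt5, Krt14, Krt10 and Krt15 had an adult peak outside the core and Lor had none. Fibroblast, melanocyte, and Langerhans cell and macrophage markers had core sites at 0 of 6 genes each. Of 5 T cell markers only Cd2 had one, with 5.20, 4.88 and 5.36, and Cd3e, Cd3d, Cd3g and Lck had no adult peak. Of 6 endothelial markers only Pecam1 had any, an intronic site 40139 bp from its start being strong in every list (18.6, 11.2 and 15.8). Vwf had an adult peak outside the core, and Cdh5, Kdr, Tek and Tie1 had none. A peak near a marker gene does not measure how many cells of that type were present, and the part of other cell types in the peaks was not tested.

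Some genes gathered several sites. Tex44 had the most, 7 sites between 8417 and 46177 bp downstream of its start, with adult fold enrichment of 4.09 to 10.7. Ahnak, Cish, Irf2bp2, Klf4 and Nfkbia had 6 each. Those nearest to Irf2bp2, a transcriptional co-repressor gene, ranged by mean percentile from a site at -1147 bp with 9.95, 9.32 and 10.1 to a site at -2399 bp with 3.25, 3.63 and 3.14, and the farthest lay at -91651 bp. At Cish, which encodes an inhibitor of cytokine receptor signalling, the sites lay from -742 to 19158 bp, and that at -742 bp had the highest mean percentile with 8.71, 6.37 and 7.85. At Ahnak, a large scaffold protein gene, the site of highest mean percentile was at -4655 bp with 7.93, 5.61 and 4.51.

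The order of core sites was correlated among the 3 lists but not the same. Spearman's rho of fold enrichment over the 3502 sites, as a description of sites that share their genome position, was 0.733 between adult and aged/IgG control, 0.758 between adult and aged/anti-IL-17A/F and 0.749 between the aged lists. Of the core sites in the upper quartile of adult strength, 74.2% were in the upper quartile with IgG and 73.9% with anti-IL-17A/F. Of those in the lower quartile, 55.6% and 57.9% were in the lower quartile of these lists. Between the aged lists the shares were 74.9% for the upper and 56.6% for the lower quartile. The top 100 core sites of the lists had 48 sites in common and took in 158 sites together. Percentile ranks among core sites moved by a median of 11.7 points between adult and aged/IgG control, 11.5 between adult and aged/anti-IL-17A/F and 11.6 between the aged lists. Moves of over 50 points were seen at 93, 64 and 76 sites, of which 79, 52 and 64 had all 3 summits within 100 bp.

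At some of the largest rank differences, a single peak of a list overlapped neighbouring sites. At Mt2, a metallothionein gene, the site 28 bp from the start had 3.18 in adult, 2.98 with IgG and 13.1 with anti-IL-17A/F. The last value belongs to a peak from 94171383 to 94173087 on chromosome 8 that also covers the neighbouring Mt2 site, where the values were 10.3, 8.74 and 13.1, and its summit was 963 bp from those of the other lists. In the aged/IgG control list a peak overlapped both of a pair of sites at Cish (3.72, 6.37 and 2.62, summits 1029 bp apart) and at Rab5a (2.53, 6.08 and 2.79, 1208 bp apart). At both genes that peak took in only part of the site with these values and ended before its adult summit. At Oaz1, whose product inhibits polyamine synthesis (2.56, 5.21 and 7.598, 650 bp apart), a peak of each aged list overlapped both of a pair. The one with anti-IL-17A/F ended before the adult summit of the site. In all, 20 core sites shared their aged/IgG control peak with another core site and 22 shared their peak with anti-IL-17A/F.

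At the remaining extremes the summits were within 67 bp of each other. An intronic site of 1700096J18Rik had 8.24 in adult, 2.56 with IgG and 4.89 with anti-IL-17A/F, and a site at -97776 bp from Zmiz1 had 7.62, 2.61 and 3.10. Higher in adult than with anti-IL-17A/F were a site near Arhgap30, in an intron of Nectin4, with 8.87, 5.76 and 3.38, and one in Rab44 with 6.71, 3.13 and 2.42. The site at -27216 bp from Kcnn3, with 2.74, 5.43 and 5.33, was lowest in adult, and the site at -406 bp from Amz2, with 4.98, 2.82 and 6.53, was lowest with IgG. With 1 pooled list per condition these moves have no replicate error, and whether they exceed the variation between mice was not tested.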

How the data were processed

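p65 ChIP–seq of epidermal cells was analysed from 3 deposited peak lists, 1 for each of the adult, IgG and anti-IL-17A/F conditions. According to the methods and processing notes, the authors trimmed reads with Trimmomatic 0.36, aligned them to mm10, pooled and downsampled the mice of a condition and called peaks with MACS2. Pooling removes the spread between mice. Each deposited list holds for every peak a score, a fold enrichment that the authors' peak caller computed against local background (whether with the input libraries as control is not given in the sources used here), the deposited −log10 of the p-value and of the q-value, and a summit. The lowest deposited −log10 q was 2.23 in adult, 2.07 with IgG and 2.08 with anti-IL-17A/F. The score was not used, and read depth behind a peak is unknown.

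Peaks were overlapped by at least 1 bp. Where several peaks of a list met a core site, the peak with the largest overlap was used. Genes were assigned by the nearest TSS of 45657 curated RefSeq transcripts (GRCm38), measured from the middle of the peak. Motifs were searched on both strands within 100 bp of the adult summit. Shares have 95% Wilson intervals and differences 95% Newcombe intervals. The within-decile mean was weighted by core sites over deciles with at least 20 peaks of each class, with a normal 95% interval. Overlap, motif and nearest-TSS steps were checked against bedtools 2.31.1 and inputs with known answers. Python 3.11.15, numpy 2.4.6, pandas 2.3.3, scipy 1.17.1, pysam 0.24.0 and matplotlib 3.10.9 were used.

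The members and gene lists were chosen with earlier results of these data known. Named were the 12 core sites of highest mean percentile, up to 4 leading members of each list and the members without a core site where there were 5 or fewer of these, the 4 genes with the most sites (ties in alphabetical order), 2 sites at each end of each rank difference, the 5 commonest κB sequences, and 3 sites on either side of the overlap limit. Some named sites are not reported here. Nfkb1, Cyld, Nfkbie, the further sites of Nfkbia and the other list genes without a core site were named after their values were seen, and the within-decile comparisons of location, AP-1 and GC box were added then. Il36a, Il36b, Il36g, Il36rn, Cxcl11, Flg and Trac were not matched in the annotation used. Alternatives were stricter q limits, other overlap rules, equal numbers of peaks, exchanged lists, other motif windows and other gene assignments.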

Additional observations from a re-analysis of the deposited data

How the results depend on the processing

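No paired analysis was possible because each condition is 1 pooled list, and for the same reason no replicate could be left out. Over 60 alternative values of 7 results, 40 stayed within the counting interval, or for counts within 1.5 times, 20 moved and 0 changed direction. The number of core sites ran from 2586 to 3503, and 18 or 19 NF-κB regulator genes had one. The share of core sites with a κB match moved from 42.5% to 48.4% at a −log10 q of at least 10, 45.1% with summits within 100 bp, 48.0% with equal numbers of peaks, 34.3% within 50 bp, 47.1% within 200 bp, 50.1% over the whole peak and 19.5% with a stricter consensus, a subset of the main motif. The difference from other adult peaks moved from 23.8 points to 25.7 with summits within 100 bp, 17.6 with equal numbers, 16.5 with the lists exchanged, 20.9 within 50 bp and 12.7 with the stricter consensus. The AP-1 share, 14.4%, was 7.91%, 22.2% and 27.6% within 50 bp, 200 bp and the whole peak. The share within 1 kb of a TSS, 32.4%, was 29.9% at a −log10 q of at least 10, 29.9% with 50% overlap, 30.2% with summits within 100 bp and 29.6% with equal numbers. With peaks within 10 kb of a TSS only, 1545 protein-coding genes had a core site. Smaller windows and narrower motifs hold fewer matches by construction. The other causes were not tested.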
